A study of Mus musculus with 6 samples.

Results

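The E proteins, the ID proteins and the partners of LMO2 were examined as 10 genes, namely Tcf3, Tcf12 and Tcf4, Id1, Id2 and Id3, and Lyl1, Tal1, Lmo2 and Lmo4. They were chosen by name, as every probe whose array name was 1 of these symbols or an older symbol of the same gene. All 10 had a probe, and together they had 19 of the 45281 probes of the array. RNA came from sorted DN3 thymocytes of miR-185 Tg mice, which carry a transgene for the microRNA miR-185 (3 samples, called Tg 1, Tg 2 and Tg 3), and of wild-type mice (3 samples, called WT 1, WT 2 and WT 3). Both groups were C57BL/6, and each sample was hybridised to 1 array. DN3 cells are immature T cells of the thymus that lack CD4 and CD8 and in which beta-selection takes place. The gate took cells with CD25 and without CD44, and left out cells with CD4 or CD8 and cells with surface markers of B, NK, gamma-delta T, myeloid or dendritic cells. The sources used here do not give the promoter of the transgene, the age of the mice or whether a sample was 1 mouse or a pool, so the p-values cover only sample-to-sample spread, some of which may be technical. The Mir185 hairpin gives mmu-miR-185-5p and mmu-miR-185-3p. The second is printed from the RefSeq table of GRCm38.p6 (chromosome 16, 18327405 to 18327425, minus strand), with its seed, bases 2 to 8, in capitals. It is the sequence in the mouse genome, and mature mmu-miR-185-5p was not available there. Which product acts in the Tg cells was not measured here.
mmu-miR-185-3p: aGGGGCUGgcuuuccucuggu

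E proteins are basic helix-loop-helix transcription factors. They bind as pairs to E-boxes, sites with the letters CANNTG, where N is any base. Tcf3 encodes E2A, Tcf12 encodes HEB and Tcf4 encodes E2-2. ID proteins have the helix-loop-helix but no DNA-binding basic region, so they pair with E proteins and keep them off DNA. In DN3 thymocytes E proteins promote T cell receptor gene rearrangement and pre-T cell receptor alpha, and signals from the pre-T cell receptor raise Id3, which lowers E protein activity. TAL1 and LYL1 are related helix-loop-helix factors that pair with E proteins and join LMO2, a LIM-only protein that binds no DNA itself. These LMO2 complexes act in blood stem and progenitor cells, their genes are normally lowered as T cells develop, and their forced expression causes T cell leukaemia. LMO4 is another LIM-only protein, which shares the LIM-binding partner LDB1.

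None (0) of the 9 members that could be tested differed between miR-185 Tg and wild-type cells by the test across all genes (limma, Benjamini-Hochberg adjusted p under 0.05), against 4.23% of the 12427 genes tested, or 526 genes (2.55% higher and 1.68% lower in Tg). At an unadjusted p under 0.05 there was 1 member, Id1, against 20% of all genes. The difference of Tg minus wild type was positive for 6 members and negative for 3, with a median of 0.23 on the log2 scale, and the median over all genes was -0.0015. Id1 alone had groups that did not overlap, with the Tg arrays higher, while 28.2% of all genes had such groups, 14.9% with Tg higher and 13.2% with Tg lower. Per probe, 0 of 14 kept probes passed, against 3.30% of all kept probes, a kept probe being one that was detected (p under 0.05) on 3 arrays or more.

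Between 39.5% and 41.8% of probes were detected per array, with a median of 41 or 42 beads per probe. The first principal component of all tested genes carried 45.6% of the variance, with Tg 2 far from the rest, while WT 2 and WT 3 lay closest to each other (r = 0.997 across genes, which are not independent replicates). Of the 7 DN3 markers, 7 were detected on all 6 arrays and 3 rose, among them Il2ra, which encodes the CD25 used for the gate and averaged 10.99 in Tg and 9.44 in WT cells (adjusted p = 0.016, limma). Of the 4 markers of other thymocyte stages, Cd8a was detected on 0 arrays and Cd4 on 1 Tg and 1 WT array, while Cd8b1 and Cd44 were detected on all 6. B cell, NK cell and thymic epithelial marker lists had 0 genes detected on all 6 arrays, and the dendritic cell list had 1, the widely expressed Bst2.

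**Figure D1:**
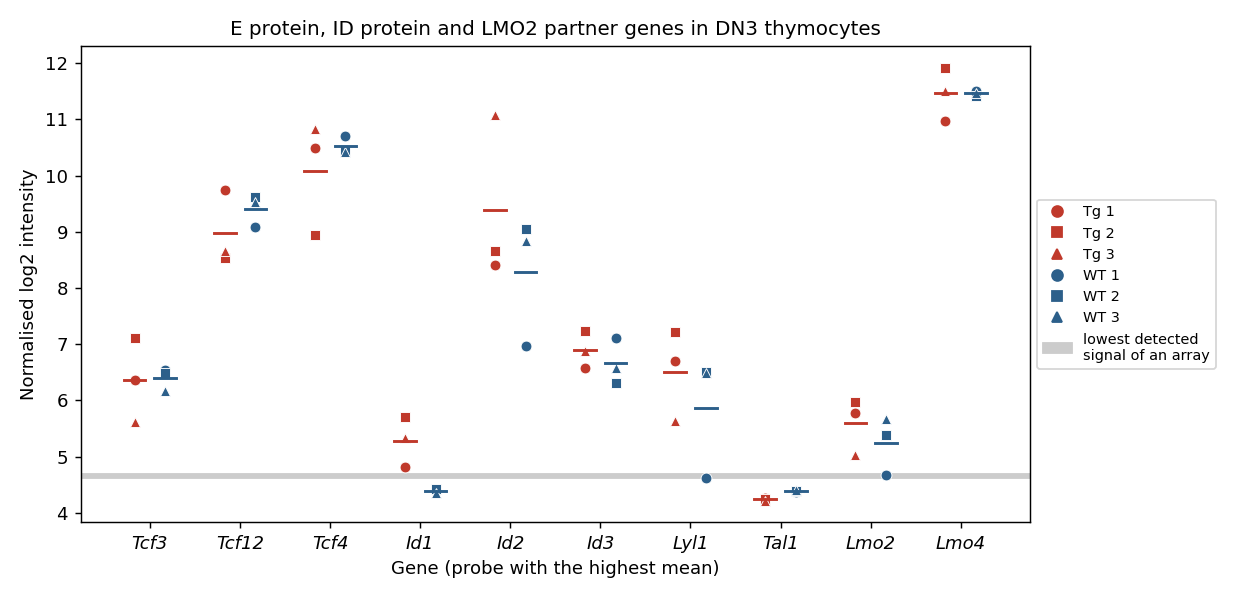
Normalised log2 intensity (vertical axis) of the probe with the highest mean of each gene, with Tg arrays in red to the left of WT arrays in blue, symbols for the replicates and bars for the means. The grey band spans the lowest detected signal of the arrays (4.62 to 4.70). Id1 lay above the band on the Tg arrays and below it on the WT arrays, Tal1 lay below it on all 6, and Id2 ran from 6.97 to 11.08.

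Among the E proteins, Tcf3, the E2A gene, was measured under its older array name TCFE2A by a pair of probes. The brighter one had normalised log2 intensities of 6.36, 7.11 and 5.62 in Tg 1, 2 and 3, against 6.54, 6.50 and 6.17 in WT 1, 2 and 3. The Tg values fell on both sides of the WT values, with Tg 2 the highest and Tg 3 the lowest array. The difference was -0.040 ± 0.37 (SE; adjusted p = 0.97, limma), and its 95% interval ran from -0.90 to 0.82. The dimmer probe ran between the same extremes, with 6.18, 6.95 and 5.62 in the Tg arrays against 5.96, 6.00 and 6.09 in the WT arrays, a difference of 0.23. The table also has 2 probes named TCF3. In this array's naming E2A is TCFE2A, and Tcf3 is an older symbol of Tcf7l1, which has no probe of its own name here, so these probes were kept apart. One of them was detected, at 4.77, 5.66 and 4.72 in the Tg arrays against 5.84, 5.34 and 5.52 in the WT arrays, and the groups overlapped (difference -0.52 ± 0.28, SE; adjusted p = 0.38 over all probes, limma).

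Tcf12 encodes HEB, an E protein abundant in thymocytes that activates the pre-T cell receptor alpha gene. Its brightest probe had values of 9.74, 8.53 and 8.66 in Tg 1, 2 and 3, against 9.08, 9.61 and 9.52 in WT 1, 2 and 3. Tg 2 and Tg 3 were below every WT array and Tg 1 was above them. The difference was -0.43 ± 0.34 (SE; adjusted p = 0.55, limma; 95% interval -1.21 to 0.36). A second probe, 2030274, had a like difference, -0.38, and moved with the first over the 6 arrays (r = 0.83, with shared arrays and normalization). Another, 5080356, did not (r = -0.37 with the brightest probe). It was highest in Tg 3, at 8.47, against 5.72 to 6.91 on the other arrays, and its difference was 0.55 ± 0.65 (SE). The authors' deposited gene-level table holds that probe as a row apart from the other Tcf12 probes. The remaining Tcf12 probe was detected on 0 arrays.

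Tcf4 encodes E2-2, the E protein best known for its role in plasmacytoid dendritic cells. Its brightest probe had values of 10.49, 8.95 and 10.82 in Tg 1, 2 and 3, against 10.71, 10.46 and 10.41 in WT 1, 2 and 3. Tg 2 alone was low, and the other 5 arrays lay within a narrow range. The difference was -0.44 ± 0.44 (SE; adjusted p = 0.64, limma; 95% interval -1.45 to 0.58), and without Tg 2 it was 0.13 (adjusted p = 0.63). The other probes of Tcf4 were detected on 2 arrays and on 0 arrays. Siglech, a marker of plasmacytoid dendritic cells, was detected on 1 Tg and 1 WT array. It was at 5.65 in Tg 3 and at 4.69 in WT 1, close to the lowest detected signal of WT 1, 4.63. Tg 3 also had the highest Tcf4 value, and the part of such cells in it was not tested.

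Id1, an ID protein gene that responds to BMP signals in many cells, was the member with the smallest p. Its single probe had values of 4.81, 5.70 and 5.33 in Tg 1, 2 and 3, against 4.41, 4.43 and 4.35 in WT 1, 2 and 3. It was detected on all 3 Tg arrays and on 0 WT arrays, so all WT values lay below the lowest detected signal. In the deposited intensities the gap was small: 115.6, 138.2 and 119.1 in the Tg arrays, against 109.3, 103.3 and 101.4 in the WT arrays, while the median intensity over all probes was 106.9, 108.3 and 100.9 in the Tg arrays and 110.6, 103.9 and 104.4 in the WT arrays. The bead-to-bead standard error of this probe was 0.030 to 0.048 on the log2 scale of the deposited intensities. The mean was 5.28 ± 0.45 in Tg and 4.39 ± 0.041 in WT cells (SD, n = 3 each). The Tg mean was 1.53-fold above the mean of the lowest detected signals of the WT arrays. This bound holds for the means after background removal and leaves out the spread between samples. Without background correction the difference was 0.27 on the log2 scale. The fitted difference of 0.89 ± 0.22 (SE) did not pass (adjusted p = 0.067, limma; 95% interval 0.38 to 1.40). The probe entered the test through its Tg arrays alone, so that it differs at all follows in part from the filter. An exact two-sided permutation test of Id1 over the samples gave p = 0.1, the smallest value that 3 against 3 allows. The genes whose pattern over the 6 arrays was most like that of Id1 were the myosin light chain gene Myl12b (r = 0.997), Tex261 (r = 0.996) and the cathepsin gene Ctsb (r = 0.995), which share its arrays and normalization, and the adjusted p of each was above 0.05 (0.075, 0.17 and 0.13, limma).

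Id2 opposes E proteins in innate lymphoid, NK and dendritic cells, and showed the widest range of the members, 4.11 on the log2 scale, wider than that of 99.9% of all tested genes. Its brightest probe, under the older array name IDB2, had values of 8.42, 8.65 and 11.08 in Tg 1, 2 and 3, against 6.97, 9.04 and 8.84 in WT 1, 2 and 3. Tg 3 was the highest array and WT 1 the lowest, while the remaining 4 arrays lay close together. The other kept probe, under the name ID2, had the same extremes, with 6.37, 7.16 and 8.08 in the Tg arrays against 6.11, 6.71 and 6.46 in the WT arrays (r = 0.90 between the probes). The difference at the brightest probe was 1.10 ± 0.79 (SE; adjusted p = 0.50, limma; 95% interval -0.71 to 2.92). Without Tg 3 it was 0.25 and without WT 1 it was 0.45 (adjusted p = 0.83 and 0.84). Of the NK and innate lymphoid markers Klrb1c, Ncr1 and Eomes were detected on 0 arrays. The other, Zbtb16, was detected on 3 Tg and 1 WT array, at 4.79, 4.78 and 4.75 in the Tg arrays against 4.39, 4.72 and 4.59 in the WT arrays, with all Tg above all WT arrays (difference 0.21, adjusted p = 0.45, limma). Their list had summed normalised intensities of 84.7 to 87.6 in Tg and 76.8 to 83.0 in WT arrays, over 4 genes on the array. The dendritic cell list summed to 487.1, 297.5 and 788.4 in Tg 1, 2 and 3, against 434.5, 446.8 and 659.1 in WT 1, 2 and 3. Like Id2 it was highest in Tg 3, but it was lowest in Tg 2. Of its genes, Siglech (5.65) and Bst2 (9.41) were highest in Tg 3, and Cd209a, Flt3 and Itgax were detected on 0 arrays. The part of both lists in the Id2 values was not tested.

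Id3 is the ID gene that pre-T cell receptor signals raise through EGR factors. Its probe had values of 6.57, 7.23 and 6.88 in Tg 1, 2 and 3, against 7.12, 6.31 and 6.57 in WT 1, 2 and 3. The groups overlapped, with Tg 2 highest and WT 2 lowest. The difference was 0.23 ± 0.29 (SE; adjusted p = 0.73, limma), with a 95% interval from -0.45 to 0.91. Of 4 tested EGR and NFAT factors upstream of Id3, 0 passed in limma and 1, Egr3, had an unadjusted p under 0.05. Egr3 was detected on 1 Tg array and on 3 WT arrays, and its difference was -0.61 ± 0.17 (SE; adjusted p = 0.091, limma). Egr2 had a difference of -0.55, Nfatc1 of 0.27 and Egr1 of -0.22. Egr1 was highest in Tg 3, at 11.01, the array that was also highest in Id2.

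The region before the start of Id2 and of Lyl1 is printed because these members varied most between arrays, and that of Id3 because it is the ID gene tied to the pre-T cell receptor. Each is 250 bases, 5′ to 3′ on the strand of the gene, from the RefSeq promoter table of GRCm38.p6, with E-boxes (CANNTG, which reads the same on both strands) in capitals. The Id2 region is chr12:25096093-25096342 on the minus strand, the Id3 region chr4:136143572-136143821 on the plus strand and the Lyl1 region chr8:84701207-84701456 on the plus strand.
Id2: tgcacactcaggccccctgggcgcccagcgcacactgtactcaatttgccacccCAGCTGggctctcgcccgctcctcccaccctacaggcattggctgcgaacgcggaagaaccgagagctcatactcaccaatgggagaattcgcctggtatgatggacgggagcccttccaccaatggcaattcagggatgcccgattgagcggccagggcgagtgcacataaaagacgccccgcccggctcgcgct
Id3: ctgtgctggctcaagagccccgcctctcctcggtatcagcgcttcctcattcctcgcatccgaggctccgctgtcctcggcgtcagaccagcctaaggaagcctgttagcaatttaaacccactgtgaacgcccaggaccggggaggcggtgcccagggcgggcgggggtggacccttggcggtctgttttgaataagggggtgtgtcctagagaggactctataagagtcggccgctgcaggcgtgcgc
Lyl1: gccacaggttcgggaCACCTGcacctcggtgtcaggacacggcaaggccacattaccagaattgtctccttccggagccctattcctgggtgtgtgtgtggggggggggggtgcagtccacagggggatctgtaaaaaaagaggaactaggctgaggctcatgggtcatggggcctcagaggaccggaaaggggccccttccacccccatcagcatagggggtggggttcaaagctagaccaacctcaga
Id2 had 1 E-box, with the letters CAGCTG, 196 bases before its start. Lyl1 had 1, close to the far end of the window, and Id3 had 0 in this window. Promoter entries of members on 1 chromosome were left out, while the background kept all chromosomes. Of the 10 members, 7 with 12 starts remained, and 7 of these starts had an E-box in the 250 bases. Overlapping windows of Lmo4 starts held the same E-box. Of all 32851 promoters in the table, 66.2% had an E-box. CAGCTG was present in 13.0% of them.

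Lyl1, which encodes a helix-loop-helix partner of LMO2 in progenitors, had values of 6.69, 7.22 and 5.63 in Tg 1, 2 and 3, against 4.63, 6.50 and 6.49 in WT 1, 2 and 3. WT 1 was the lowest array, and Lyl1 was not detected on it, while Tg 2 was the highest. The difference was 0.64 ± 0.58 (SE; adjusted p = 0.60, limma; 95% interval -0.70 to 1.99), and without WT 1 it was 0.022 (adjusted p = 0.99). Lmo2, the LIM-only bridge of the complex, had values of 5.77, 5.97 and 5.03 in the Tg arrays, against 4.67, 5.39 and 5.67 in the WT arrays. The arrays with the lowest and highest Lmo2 were again WT 1 and Tg 2. Lmo2 was dim, with deposited intensities of 112.3 to 149, and on WT 1 it lay close to that array's lowest detected signal, 4.63. The Lmo2 difference was 0.35 ± 0.33 (SE; adjusted p = 0.62, limma; 95% interval -0.42 to 1.11), and 0.12 without background correction. Without WT 1 the Lmo2 difference was 0.061 (adjusted p = 0.95), and without Tg 3 that of Lyl1 was 1.09 (adjusted p = 0.29).

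Lyl1 and Lmo2 followed each other over the 6 arrays (Pearson r = 0.971, exact permutation p = 0.0028; Spearman rho = 0.943, exact permutation p = 0.017). Of 36 pairs of members this was the pair with the smallest p for Pearson r, and adjusted over the 36 pairs its p was 0.10 for r and 0.30 for rho, so it did not pass. On WT 1 both genes lay at or near the lowest detected signal. Without Tg 3 and WT 1, the arrays farthest from the median of Lyl1, r was 0.838. Tcf12 and Lmo4 ran in opposite order on all 6 arrays (Spearman rho = -1.0, exact permutation p = 0.0028; Pearson r = -0.799, exact permutation p = 0.0056), with an adjusted p of 0.10 for both, and r without the 2 arrays farthest from the median of Tcf12 was -0.676. That order rests on small gaps: Lmo4 was 11.50 in WT 1 and 11.51 in Tg 3, with a bead-to-bead standard error of 0.038 to 0.064. A further kept probe of each gene did not follow the one used (r = -0.37 for Tcf12 and -0.30 for Lmo4). WT 2 and WT 3 were so alike that they may count as fewer than 2 independent points, and each group alone has too few arrays for a correlation. Of 18 tested genes of the lists of complex components and linked progenitor genes, 5 were also lowest in WT 1. These were Ssbp2, whose product stabilises LDB1 complexes, Runx1, the corepressor gene Cbfa2t3, the homeobox gene Hhex and the erythroid factor gene Nfe2. All genes had WT 1 as their lowest array in 14.7% of cases. Nfe2, for example, had values of 10.37, 10.79 and 9.91 in the Tg arrays, against 8.82, 10.05 and 9.88 in the WT arrays.

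Transcripts of other cells also differed between arrays in part along these lines. Hbb-b1, a beta globin gene, was lowest in WT 1 as well, with 9.58, 10.21 and 9.40 in the Tg arrays against 8.0, 12.40 and 13.12 in the WT arrays. Over the 7 red blood cell markers the summed normalised intensity ran from 1079 to 2197 in Tg and from 508 to 15030 in WT arrays, 2 were detected on all 6 arrays, and the defining markers Gata1 and Ermap on 0. Alas2, the heme synthesis gene of red cells, was detected on 0 Tg and 2 WT arrays, at 5.68 in WT 2 and 5.80 in WT 3, and Klf1, an erythroid factor gene, on 0 Tg and 1 WT array. The macrophage and neutrophil lysozyme gene Lyz2 had values of 8.29, 8.59 and 7.42 in the Tg arrays against 5.75, 7.19 and 7.02 in the WT arrays, lowest in WT 1 and highest in Tg 2. Its difference was 1.45 ± 0.45 (SE; adjusted p = 0.12, limma). Of the 5 neutrophil and macrophage markers on the array 1 was detected on all 6 arrays and Itgam on 0, and their summed intensity ran from 254.4 to 466.5 in Tg and from 165.6 to 491.7 in WT arrays. S100a8, a neutrophil gene among them, was detected on 0 Tg and 3 WT arrays, with 4.21, 4.28 and 4.23 in the Tg arrays against 5.44, 5.80 and 7.96 in the WT arrays, and it entered the test through its WT arrays alone (adjusted p = 0.081, limma). The part of these transcripts in the Lyl1 and Lmo2 values was not tested, and in bulk RNA fewer cells of a type and less RNA per cell cannot be told apart.

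Tal1, the other helix-loop-helix partner of LMO2 and an erythroid factor, was detected on 0 arrays. Its probe had values of 4.26, 4.24 and 4.22 in Tg 1, 2 and 3, against 4.37, 4.39 and 4.4 in WT 1, 2 and 3, all below the lowest detected signal, so no fold is given and Tal1 was not tested. Lmo4 was bright on every array, with 10.98, 11.92 and 11.51 in the Tg arrays against 11.50, 11.41 and 11.47 in the WT arrays. The WT arrays lay close together and between the Tg values, and the difference was 0.0085 ± 0.23 (SE; adjusted p = 0.99, limma; 95% interval -0.52 to 0.54). With array weights, which give arrays unlike their group less weight, it was -0.40 and passed (adjusted p = 0.020). That setting called 4473 of all 12427 genes, against 526 in the main fit. A dimmer Lmo4 probe did not follow the first (r = -0.30) and was highest in Tg 3, at 7.26.

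**Figure D2:**
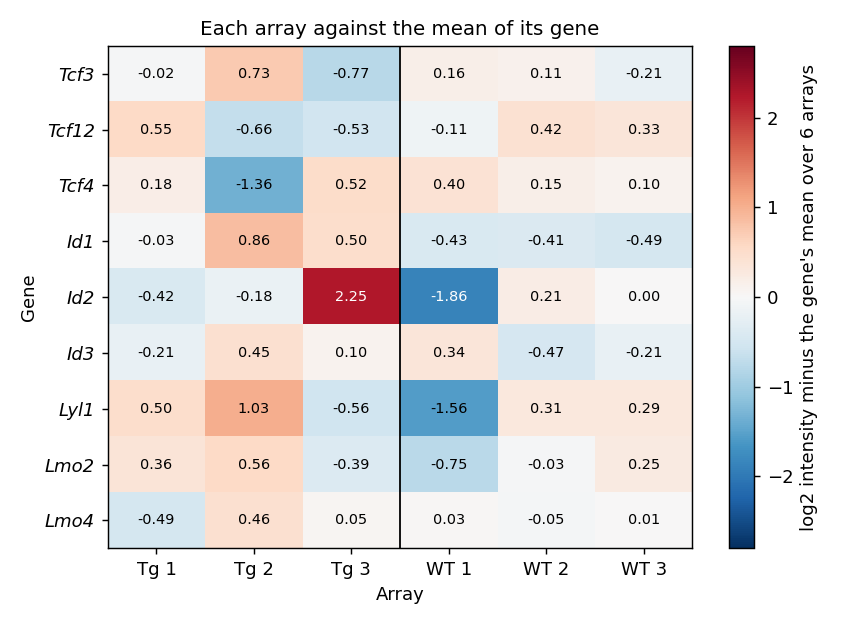
Normalised log2 intensity of each tested member on each array minus the mean of that gene over the 6 arrays (colour and printed value), with Tg arrays left of the line and WT arrays right of it. Tg 2 is the highest or the lowest array in 8 cases over the 9 genes, Id2 stands out in Tg 3 and WT 1, and Lyl1 and Lmo2 share their lowest array, WT 1.

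The pattern of single arrays ran through the whole group of genes. Tg 2 held the highest value of 6 members and the lowest value of 2, while it was the highest array for 32.0% and the lowest for 28.6% of all genes. The SD was larger among Tg than among WT arrays in 6 of 9 members, and in 81.1% of all genes. The median SD of the members was 0.66 in Tg and 0.28 in WT arrays, against medians over all genes of 0.33 in Tg and 0.15 in WT arrays.

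**Figure D3:**
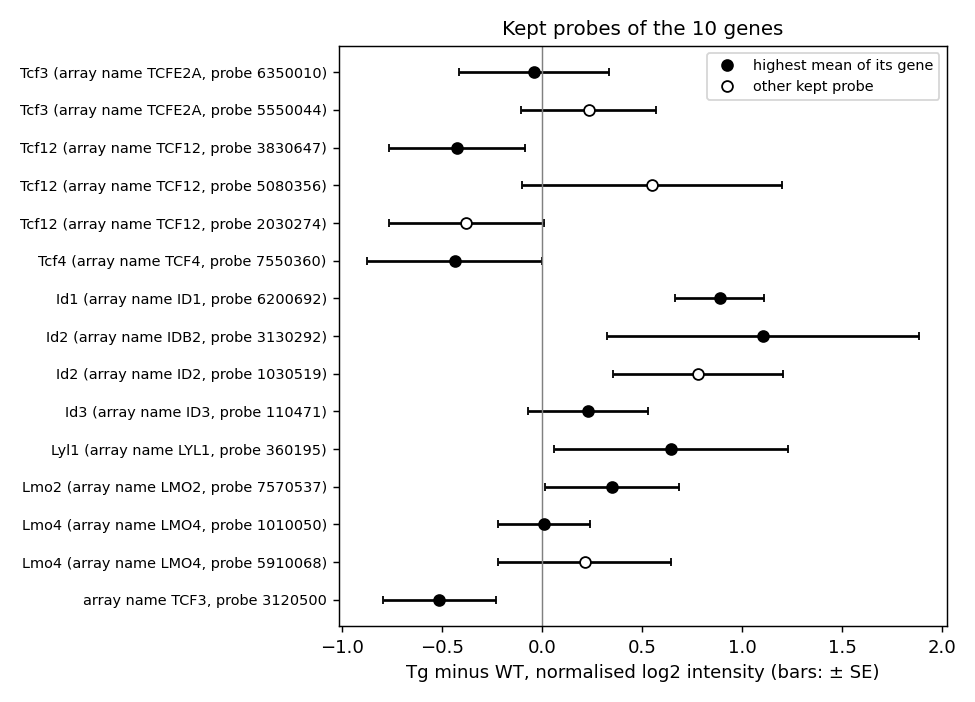
Difference of Tg minus WT in normalised log2 intensity (horizontal axis, bars ± SE from limma) for each kept probe of the 10 genes and for the detected probe named TCF3. Filled points are the probes that stand for a gene. The Id1 difference of 0.89 is a fitted value against WT arrays on which the probe was not detected, and the Tcf12 probes point in both directions.

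Genes around the network were described from lists. Among 13 tested genes of 14 reported E protein targets, 1 rose and 0 fell (4.23% of all genes passed), 9 differences were positive and the median was 0.34. An unadjusted p under 0.05 (limma) was found for 5 of the 13, against 20% of all genes. Socs3, which encodes an inhibitor of cytokine signalling, had values of 10.60, 11.09 and 10.28 in Tg 1, 2 and 3, against 8.91, 9.62 and 9.46 in WT 1, 2 and 3. The groups did not overlap, and it rose by 1.33 ± 0.27 on the log2 scale (SE; adjusted p = 0.038, limma). Its call was lost without Tg 1, WT 1, WT 2 or WT 3 (adjusted p = 0.11 to 0.16), with WT 2 and WT 3 averaged (adjusted p = 0.13), with median scaling (adjusted p = 0.076) and with the authors' series values (adjusted p = 0.078).

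Other E protein targets pointed both ways without passing. Notch3 had a difference of 0.75 ± 0.20 (SE; adjusted p = 0.075, limma), with all Tg above all WT arrays. Il7r, the interleukin 7 receptor gene, had values of 8.90, 8.54 and 9.29 in the Tg arrays against 9.69, 9.85 and 9.71 in the WT arrays, and a difference of -0.84 ± 0.23 (SE; adjusted p = 0.088, limma). For Il7r all Tg arrays were below all WT arrays. The recombinase gene Rag1 had a difference of -0.64, Rag2 of -0.26 and Ptcra, which encodes pre-T cell receptor alpha, of 0.52, and their groups overlapped.

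Of the 21 listed cofactors and relatives of the members, 12 were tested and 0 passed in limma, with 1 at an unadjusted p under 0.05 (7 positive, median 0.075). That gene was Cbfa2t3, with a difference of 0.41 ± 0.17 (SE; adjusted p = 0.22). Cbfb had a difference of -0.26, Kdm1a, a histone demethylase gene, of -0.20, and Ssbp3 of 0.22. The shared LIM-binding partner Ldb1 was bright and had a difference of 0.0025 (adjusted p = 0.997). Id4, Lmo1, Lmo3, Tal2, Gata1 and Gata2 were detected on 0 arrays.

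Of the 8 progenitor genes linked to LMO2 or LYL1, 6 were tested, 0 rose and 2 fell (2.55% of all genes rose and 1.68% fell), with 1 difference positive and a median of -0.40. An unadjusted p under 0.05 (limma) was found for 3 of the 6, against 20% of all genes. Bcl11a, a transcription factor gene of lymphoid progenitors, had values of 5.95, 5.76 and 6.56 in Tg 1, 2 and 3, against 7.15, 7.77 and 7.76 in WT 1, 2 and 3, and fell by 1.47 on the log2 scale (adjusted p = 0.039, limma). Gfi1b, a repressor gene of erythroid and megakaryocyte cells, was detected on 0 Tg and 3 WT arrays and was at least 1.67-fold lower in Tg cells (adjusted p = 0.014, limma). Both calls were lost without Tg 1 or any single WT array (adjusted p = 0.10 to 0.21 for Bcl11a and 0.061 to 0.080 for Gfi1b) and with WT 2 and WT 3 averaged (adjusted p = 0.19 and 0.072), and that of Bcl11a with the replicate block (adjusted p = 0.059). Hlf was also detected on 0 Tg and 3 WT arrays, at least 1.14-fold lower in Tg cells, and did not pass (adjusted p = 0.13). Gfi1b and Hlf entered the test through their WT arrays alone, so that they are lower in Tg cells follows in part from the filter. Both bounds hold for the means and leave out the spread between samples. Kit had a difference of -0.38, Hhex of -0.066 and Nfe2 of 0.77. The red blood cell and neutrophil markers given above differed between the same arrays, and their part in these values was not tested.

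**Figure D4:**
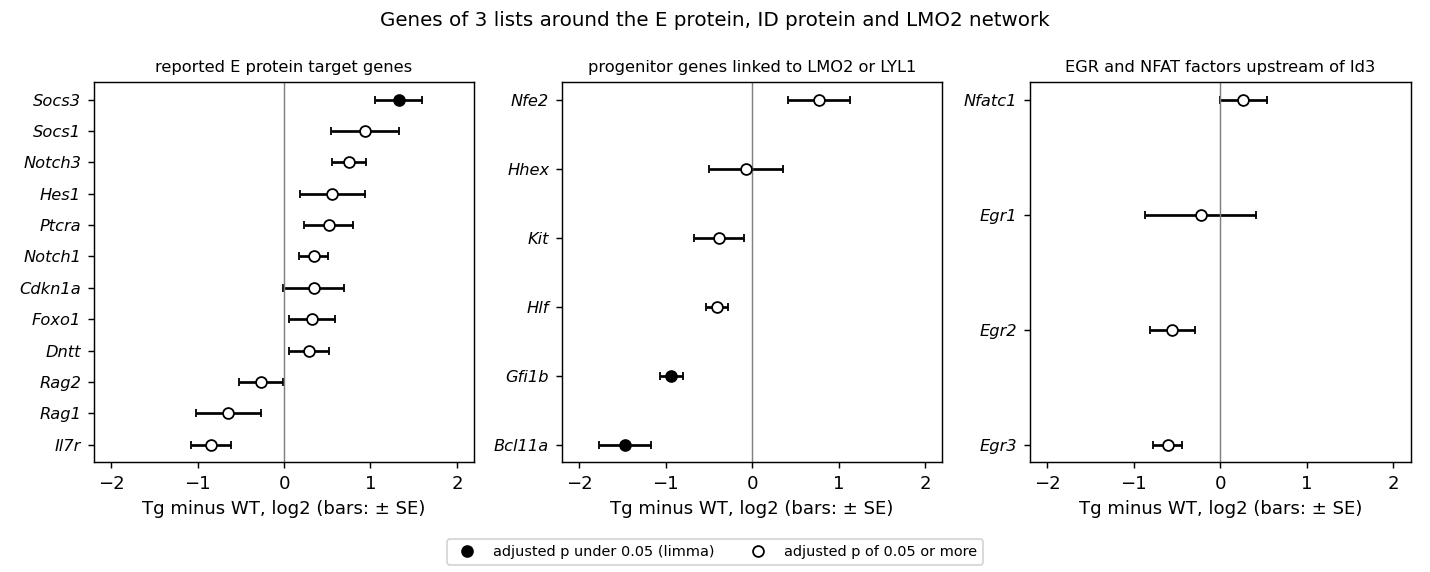
Difference of Tg minus WT in normalised log2 intensity (horizontal axis, bars ± SE from limma) for the tested genes of 3 lists, without 1 gene that is not reported here by name. Filled points have an adjusted p under 0.05 (limma). Socs3 is the 1 filled point above 0, and Bcl11a and Gfi1b, the second not detected on a Tg array and so a fitted value, are the 2 filled points below 0.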

How the data were processed

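Sorted DN3 thymocytes were measured on Illumina MouseWG-6 BeadChip arrays, 1 array per sample, on 1 chip. GenomeStudio 1.9.0 exported the authors' probe table without normalization, per the file headers. The table holds mean bead intensities on a linear scale, deposited with the bead SD, the number of beads and a detection score from 0 to 1, taken here to be 1 minus a detection p-value. The sources used here do not say if background was subtracted. The authors' series values are log2 intensities per gene, equal to the log2 of a deposited gene-level intensity table within 6.29e-07.

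Background was removed by normexp with an offset of 16, using detection p-values, followed by quantile normalization (limma 3.58.1, R 4.3.3). Of 45281 probes, 18597 detected at p under 0.05 on at least 3 arrays were kept. The kept probe with the highest mean stood for a gene. Array names were matched to RefSeq (GRCm38.p6): of 30774 names, 15991 matched a symbol, 5826 a unique synonym and 8957 none. Over 12427 genes, lmFit and eBayes (trend) gave p-values that were adjusted by Benjamini-Hochberg. The procedure was run on simulated data with independent noise of equal SD in both groups. These arrays have unequal SDs and 2 WT arrays that are nearly alike, so its error rate under such conditions was not tested. Differences are Tg minus WT, and understate changes of dim genes. The number of arrays limits the precision.

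Groups and replicate numbers came from the sample titles. Named were all members with every probe, and in each list up to 4 genes with the smallest p. Some genes of the lists are counted but not reported here by name. Outside that rule, Rag1, Rag2, Ptcra, Ldb1, Kit, Hhex, the genes lowest in WT 1 and the marker genes were picked with their values in view. Members and lists were chosen with earlier results of these data known. Same-numbered samples deviated together with r = -0.252, 0.109 and -0.217, so the numbers were not used as pairs. Probe sequences were not used here.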

Additional observations from a re-analysis of the deposited data

How the results depend on the processing

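The count of members that passed was 0 in 16 of 18 alternatives and the count of their probes was 0 in 15 of 16. With array weights 2 members passed, Id1 (log2 difference 0.51, adjusted p = 0.011) and Lmo4 (-0.40, adjusted p = 0.020), and 2 member probes. That setting called 4473 of all 12427 genes. With single arrays left out the count of members ran from 0 to 1, which was Id1 without Tg 2 (0.68, adjusted p = 0.049). Without Tg 2, 1711 of all 12427 genes were called. The Id1 difference stayed positive wherever it could be given, which excludes the filter for detection on all 6 arrays, from 0.26 to 1.12, with an adjusted p from 0.011 to 0.26. These settings share arrays, and most share the filter that Id1 passed through its Tg arrays alone. They are therefore no independent check of its sign. The differences of Id3, Lyl1 and Lmo2 also stayed positive.

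The count of all genes called, 526, was 310 with median scaling, 268 with the authors' series values, 312 with no filter on dim probes, 4473 with array weights, 264 with the replicate block and 36 with WT 2 and WT 3 averaged. With single arrays left out it ran from 1, without WT 1, to 1711, without Tg 2. The cause was not tested. The replicate block changed no call among the members.

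Some differences that had not passed changed sign. Tcf3 was at 0.0099 with no background correction, 0.0077 with median scaling, 0.025 with the series values, 0.024 with array weights and 0.096 with the mean of its probes. Array weights also turned the differences of Tcf12 to 0.084, Tcf4 to 0.016 and Id2 to -0.073, against -0.43, -0.44 and 1.10, and with WT 2 and WT 3 averaged Lmo4 was at -0.00038. With 1 array left out, Tcf3 ran from -0.41 to 0.33, Tcf4 from -0.81 to 0.13 and Lmo4 from -0.22 to 0.25. Id1 and Tal1 lay at or near background, so their levels on WT arrays are bounds. Lmo2 was dim as well, and on WT 1 Lyl1 and Lmo2 lay at or near the lowest detected signal.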
